A study of Mus musculus with 36 samples.

Results

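Expression of 10 Notch pathway genes was followed through mouse heart development: the receptors Notch1, Notch2 and Notch3, the ligands Jag1 and Dll4, the transcriptional repressors Hey1, Hey2, Heyl and Hes1, and the feedback inhibitor Nrarp. They were chosen by name, and all 10 were found, as 19 of the 45101 probe sets and 10 of the 20701 genes with a gene ID on the array. Hearts of OF1 mice were collected daily from embryonic day (E) 10.5 to E19.5, from young adults of 10 weeks and from old adults, whose age is 14 months in the labels and 10 months in the paper. Each of the 12 stages had 3 arrays, 36 in all. They were all of mixed sex at E10.5 and E11.5, and from E12.5 on 1 was labelled female, 1 male and 1 mixed. No genotype or treatment differed between the groups, and the stage means of a bulk tissue cannot tell fewer cells of a type from less RNA per cell.

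Notch receptors are cut on contact with a ligand on a neighbouring cell, and the freed intracellular part enters the nucleus, joins the DNA-binding protein RBPJ and switches on targets of the HEY and HES families. In the heart the pathway is known for its part in endocardial cushions, trabeculae, valves and the wall of the coronary vessels. HEY and HES proteins are repressors, so that a target of the pathway in turn holds other genes down.

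Values are log2 intensities after robust multi-array averaging (RMA), in which 1 unit is a factor of 2. Each gene was read from its probe set with the highest mean over the arrays, called the main probe set here, and intensities of different probe sets were not compared with each other. All 10 main probe sets, and 14 of the 19 in all, exceeded a mean of 5 at some stage. Shares of probe sets with a mean above 5 refer to this limit at some stage. Over all 45101 probe sets with limma, an adjusted p under 0.05 (Benjamini-Hochberg) made a call, and a differentially expressed gene (DEG) needed an adjusted p under 1e-05, a log2 difference above 2 in size and, at some stage, a mean of more than 5. The 3 arrays of a stage were labelled as separate samples.

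Some arrays stood apart in ways that touch the members. The mixed array was the lowest of its stage for 9 of 10 members at E13.5 and also at E17.5, for 7 members on the E18.5 mixed array and for 8 on the E19.5 one, while those arrays were lowest for 52.6%, 56.8%, 51.8% and 51.6% of the 20685 probe sets with a mean above 5. Among female arrays, that of old adults was lowest for 7 members, against 36.1% of those probe sets, and that of E16.5 for 6, against 24.4%. The old female array also had a summed linear intensity of 6 atrial markers of 21879, against 5859 and 12634 in the other old arrays and 7740 to 10393 in the young adult ones. The level of 18 hybridization control probe sets differed between stages as well. Its mean log2 intensities were 9.90 (E10.5), 11.52 (E17.5), 11.16 (E19.5), 12.17 (young adult) and 11.37 (old adult). The extraction protocol of the labels names liver, but none of 5 liver markers had a mean above 5 at any stage, with Alb at a log2 intensity of 3.27 at E10.5 and 4.05 in young adults, whereas the cardiomyocyte troponin Tnnt2 lay at 12.38 and 12.48.

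Hey2 was the member that separated embryonic from mature hearts most clearly. It encodes a repressor of the working ventricular myocardium and had a mean log2 intensity of 8.22 ± 0.18 (SD, n = 3) at E10.5, which fell to 6.68 ± 0.42 by E19.5 and was 3.93 ± 0.49 in the young adult heart. Jag1, the ligand, also fell, whereas Notch3, Dll4, Heyl and Nrarp rose between E10.5 and E19.5. Notch1 was higher in young adults than at E10.5. For Notch2, Hey1 and Hes1 no difference between E10.5, E19.5 and young adults passed the test in the values as deposited. Each array was also centred on the median of probe sets with a mean above 5 over the 36 arrays. Centring lowered the E10.5 difference from young adults of every probe set alike. It moved these from 0.10, -0.18 and -0.19 to -0.43, -0.70 and -0.71, and all 3 were called. Quantile normalization called Hey1 and Hes1 but not Notch2 (-0.33, adjusted p = 0.0838).

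**Figure D1:**
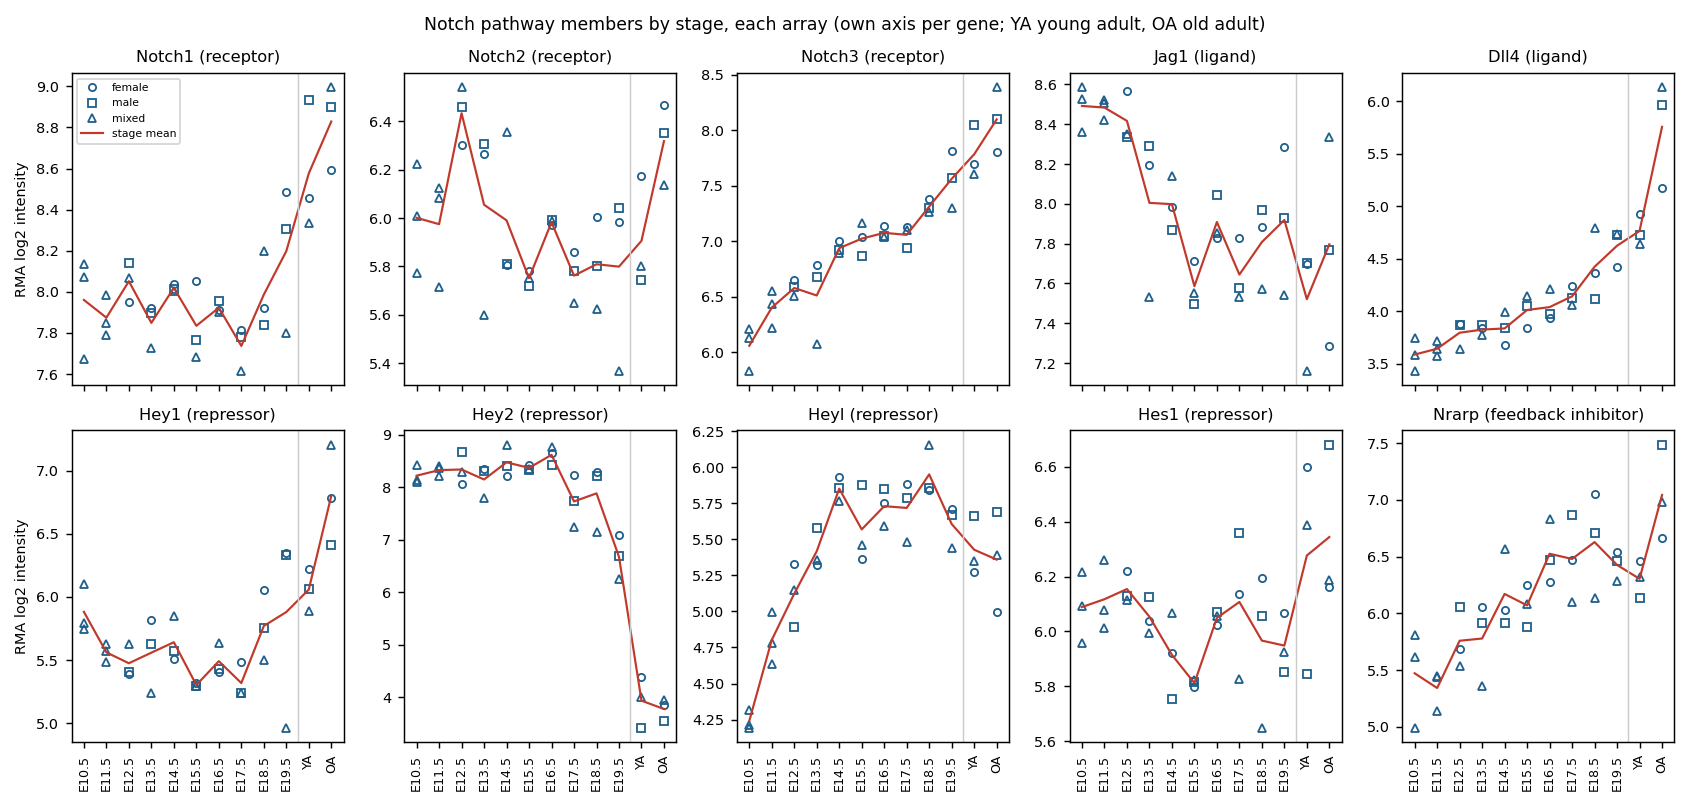
RMA log2 intensity of the main probe set of each member (vertical axis, own range per gene) on every array of the 12 stages (horizontal axis), with the arrays marked by sex label and a line through the stage means. Hey2 lay above 8 in stage mean up to E16.5 and at 3.93 and 3.77 in young and old adults, while Notch3 and Dll4 climbed from E10.5 on.

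Between E10.5 and young adult hearts, 2 of 10 members were higher at E10.5 (Jag1 and Hey2) against 27.1% of all probe sets, and 5 were lower (Notch1, Notch3, Dll4, Heyl and Nrarp) against 35.9%. Among the 20685 probe sets with a mean above 5, 48.5% were higher and 25.3% lower. The median log2 difference of the members was -0.40, against -0.19 over all probe sets and 0.41 over those with a mean above 5. Hey2 was the 1 DEG among them, against 6.53% of all probe sets. The 7 calls depended on the scaling, with 9 members called after quantile normalization and 10 after centring. Centring lowers the E10.5 difference of every probe set by the same amount. Notch1 went from -0.62 to -1.14 and Dll4 from -1.18 to -1.70. Shares of all probe sets called under these scalings are not given here, so the 9 and 10 are not read as a result about the members. With the prefix of the array titles, which changes from the E16.5 female array on, as a covariate, 5 were called. Only E16.5 holds both kinds of title, and there the female array alone has the later one. The prefix effect thus rests on that stage and cannot be told apart from sex label. The calls lost, those of Notch1 and Jag1, had log2 differences of -0.62 and 0.97 without it and -0.64 and 0.85 with it.

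Between E19.5 and young adult hearts only Hey2 differed in the main probe sets: 1 of 10 members was higher at E19.5 against 15.5% of all probe sets, and 0 were lower against 13.6%, with Notch1 also at an unadjusted p under 0.05. Of the probe sets with a mean above 5, 29.3% were higher at E19.5 and 16.5% lower. Hey2 was again the 1 DEG, against 1.45% of all probe sets. Within embryonic life, E10.5 exceeded E19.5 in 2 members (Jag1 and Hey2) against 21.8% of probe sets, and E19.5 exceeded E10.5 in 4 (Notch3, Dll4, Heyl and Nrarp) against 23.7%. Of the probe sets with a mean above 5, 39% were higher at E10.5 than at E19.5 and 23.3% lower. No member was a DEG between E10.5 and E19.5 (limma), against 2.18% of all probe sets. These comparisons share the E10.5, E19.5 and young adult arrays, so that their values are not independent of each other. The median log2 difference of the members was -0.12 for E19.5 against young adult and -0.12 for E10.5 against E19.5, against -0.04 and -0.15 over all probe sets and 0.13 and 0.21 over those with a mean above 5.

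**Figure D2:**
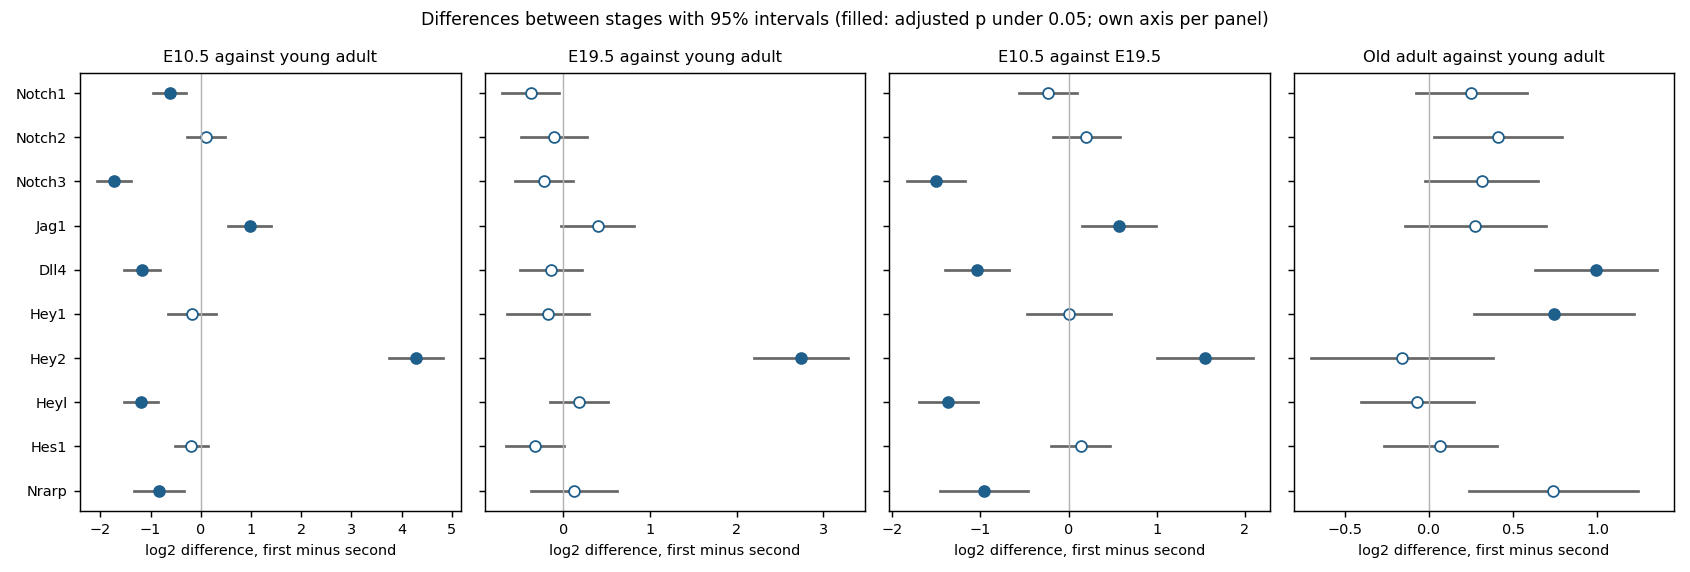
Log2 difference (horizontal axis, first stage minus second) of the main probe set of each member in 4 comparisons, with its 95% interval and a filled point where the adjusted p was under 0.05. Hey2 was at 4.29 and 2.74 against young adults, and Dll4 and Hey1 were the filled points of old against young adults.

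The course over the 10 embryonic stages was tested as a whole with an F test of the 9 daily steps. It passed for 6 of 10 members (Notch3, Jag1, Dll4, Hey2, Heyl and Nrarp), against 45.9% of all probe sets and 70.4% of those with a mean above 5. Single daily steps were mostly within the spread of the arrays. Of 90 pairs of member and step, 8 had an unadjusted p under 0.05 (limma), a limit for which no share of all pairs is given here. Only 1 pair was called, Hey2 at E19.5 against E18.5, with 0.592% of all pairs of probe set and step called. In the same way, 42 of the 80 pairs of member and stage from E11.5 to E18.5 differed from young adults, against 44.1% over all probe sets. Of the probe sets with a mean above 5, as all main probe sets are, 69.5% were called at E11.5, falling to 54.1% at E18.5.

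Among the receptors, Notch3 rose through development. Notch3, which marks mural cells of vessels, lay at log2 intensities of 5.84, 6.13 and 6.21 at E10.5, at 7.30, 7.57 and 7.81 at E19.5, and at 7.60, 7.70 and 8.05 in young adults. The E10.5 arrays did not overlap with either later group, and the E19.5 and young adult arrays overlapped. The log2 difference of E10.5 from young adults was -1.73 (SE 0.16, adjusted p = 1.92e-10), a 3.31-fold lower intensity, and that from E19.5 was -1.5 (SE 0.16, adjusted p = 1.20e-08). It lay below young adults at every stage up to E18.5, where the log2 difference was -0.47 (adjusted p = 0.0252), and at E19.5 the difference of -0.22 had a 95% interval from -0.56 to 0.11. Stage means went up in 7 of 9 daily steps, none of which passed the test on its own.

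Notch1, the receptor of endothelium and endocardium, kept within a range of 0.46 log2 units over the embryonic stage means (F test adjusted p = 0.363). Its log2 intensities were 7.67, 8.07 and 8.14 at E10.5, 7.80, 8.31 and 8.49 at E19.5, and 8.34, 8.46 and 8.94 in young adults. Of E10.5 and E19.5, only the E10.5 arrays lay wholly below the young adult ones. The log2 difference of E10.5 from young adults was -0.62 (SE 0.16, adjusted p = 0.00167), and it was lower than in young adults at each stage from E11.5 to E18.5 too, with log2 differences of -0.84 at E17.5 to -0.52 at E12.5. At E19.5 the log2 difference was -0.38 with a 95% interval from -0.71 to -0.05 and an adjusted p of 0.0794. It passed without the E19.5 female array (-0.52, adjusted p = 0.0273) or the young adult mixed array (-0.50, adjusted p = 0.0364). Between E10.5 and E19.5 the log2 difference of -0.24 was not called, but it passed without the E19.5 mixed array (-0.44, adjusted p = 0.0406), after quantile normalization (-0.65, adjusted p = 0.00130) and after centring (-0.58, adjusted p = 0.00321). The other Notch1 probe set, 1418633_at, was expressed as well and did not pass between E10.5 and young adults. Its arrays overlapped, with means of 6.72 and 7.02, a log2 difference of -0.31 (adjusted p = 0.0571) and an r of 0.58 with the main probe set over 12 stage means.

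Notch2 was read differently by its 2 probe sets. The main one, 1455556_at, lay at a mean log2 intensity of 6.0 ± 0.23 (SD, n = 3) at E10.5, 6.43 at E12.5 and 5.80 at E19.5. Its young adult mean was 5.91 ± 0.24, and the log2 difference of E10.5 from young adults, 0.10, had a 95% interval from -0.28 to 0.47. The other, 1451889_at, rose from 4.13, 4.31 and 4.68 at E10.5 to 5.16, 5.63 and 5.76 in young adults. These arrays did not overlap, with a log2 difference of -1.15 (SE 0.23, adjusted p = 9.91e-05). Over the 12 stage means the r between both probe sets was -0.35. After centring the main one was also called lower at E10.5 (-0.43, adjusted p = 0.0166), and so was the mean of both (-0.53, adjusted p = 0.000104). No direction is therefore given for Notch2 as a gene.

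Jag1, the ligand of the outflow tract, cushions and vessel wall, fell early. Its log2 intensities were 8.36, 8.53 and 8.58 at E10.5, 7.54, 7.93 and 8.29 at E19.5, and 7.16, 7.70 and 7.70 in young adults. The E10.5 arrays lay above all arrays of both later groups, which overlapped with each other. The log2 difference of E10.5 from young adults was 0.97 (SE 0.21, adjusted p = 0.000176), and stage means were lowest in the embryo at E15.5, with 7.59. Quantile normalization and centring brought that difference down to 0.48 (adjusted p = 0.0305) and 0.44 (adjusted p = 0.0345), still called. The fall to E19.5 was smaller, a log2 difference of 0.57 (SE 0.21, adjusted p = 0.0241), and it was lost without E10.5 replicate 1 (0.53, adjusted p = 0.0754), E10.5 replicate 3 (0.55, adjusted p = 0.0539) or the E19.5 mixed array (0.38, adjusted p = 0.182). Without that mixed array E19.5 instead exceeded young adults by a log2 difference of 0.59 (adjusted p = 0.0470), where all arrays gave 0.40 with a 95% interval from -0.02 to 0.82.

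Both other Jag1 probe sets were dimmer. The first, 1421106_at, fell from a mean log2 intensity of 5.80 at E10.5 to 3.83 in young adults, a log2 difference of 1.98 (adjusted p = 3.33e-06), and its stage means followed those of the main probe set with an r of 0.97 over 12 stages. The second, 1421105_at, stayed under a mean of 5 at all stages and showed a log2 difference of -0.05 with a 95% interval from -0.43 to 0.33.

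Dll4, the ligand of arterial and sprouting endothelium, had a stage mean that went up in 9 of 9 daily steps. The arrays lay at log2 intensities of 3.43, 3.58 and 3.74 at E10.5, 4.42, 4.72 and 4.73 at E19.5, and 4.64, 4.73 and 4.93 in young adults. No E10.5 array reached any array of the later groups. The log2 difference was -1.18 (SE 0.18, adjusted p = 1.28e-06) from young adults and -1.04 (SE 0.18, adjusted p = 1.95e-05) from E19.5, while E19.5 and young adults differed by -0.14 with a 95% interval from -0.50 to 0.22. The dimmer probe set 1421827_at gave log2 differences of -1.05 for E10.5 and -0.62 for E19.5 against young adults, and the second also passed (adjusted p = 0.00324). Embryonic means of Dll4 lay below 5 throughout, close to the median log2 intensity of an array, 4.0 to 4.2.

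The repressors went separate ways. Hey2 lay at log2 intensities of 8.10, 8.14 and 8.43 at E10.5 and 8.43, 8.66 and 8.77 at E16.5, where its stage mean was highest. It then fell to 6.25, 6.69 and 7.09 at E19.5 and to 3.41, 4.0 and 4.38 in young adults. The E16.5, E19.5 and young adult arrays did not overlap. E19.5 was below E18.5 by a log2 difference of -1.21 (SE 0.26, adjusted p = 0.0155), a step that was lost without the E18.5 female or male array or the E19.5 male or mixed array, each leaving 0 called steps among the members.

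Against young adults Hey2 was a DEG at every embryonic stage. Its log2 difference from young adults was 4.29 (SE 0.26, adjusted p = 9.71e-15) at E10.5, a 19.6-fold higher intensity, 4.69 (25.8-fold) at E16.5 and 2.74 (SE 0.26, adjusted p = 1.27e-09) at E19.5, a 6.70-fold higher intensity. Its mean in both mature groups was below the median intensity of an array, so that these folds stand against a signal near the floor of the array. E10.5 exceeded E19.5 by a log2 difference of 1.55 (SE 0.26, adjusted p = 2.07e-05). With the level of the hybridization controls as a covariate, this fell to 0.54 (adjusted p = 0.147) and those from young adults to 2.48 and 1.94, which still passed the test, the second no longer as a DEG. That level was 12.03 to 12.43 on the young adult arrays, 9.68 to 10.35 at E10.5 and 10.97 to 11.39 at E19.5, with no overlap. The covariate effect thus rests on differences within stages and is carried over a wider range between them. The part of the control level in the result was not tested further. The ventricular light chain Myl2 and the troponin Tnnt2 differed between E10.5 and young adults by 0.19 (adjusted p = 0.271) and -0.10 (adjusted p = 0.424) on the log2 scale, while Irx4, a ventricular transcription factor, was higher by 2.47 at E10.5 and 2.15 at E19.5. Of all 6 cardiomyocyte markers, however, 3 were lower and 1 higher at E10.5. Their summed linear intensity was 15903 to 16636 at E10.5 and 24959 to 25757 in young adults. The part of these markers in the Hey2 values was not tested.

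The promoters of Hey2 and Notch3 are shown side by side, as the members with the largest fall and rise from E10.5 to young adults. They were taken from RefSeq (GRCm38.p6, 250 bases before the annotated start and up to 3 bases after it), with matches to the RBPJ core TGGGAA and its reverse complement TTCCCA in capitals. Both genes lie on the minus strand.
Hey2, chr10:30842781-30843033: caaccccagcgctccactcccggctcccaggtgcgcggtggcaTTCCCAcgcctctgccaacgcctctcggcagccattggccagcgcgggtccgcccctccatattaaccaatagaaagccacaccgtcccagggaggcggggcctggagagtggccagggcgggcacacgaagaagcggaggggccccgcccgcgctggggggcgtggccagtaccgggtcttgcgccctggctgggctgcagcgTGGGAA
Notch3, chr17:32166891-32167140: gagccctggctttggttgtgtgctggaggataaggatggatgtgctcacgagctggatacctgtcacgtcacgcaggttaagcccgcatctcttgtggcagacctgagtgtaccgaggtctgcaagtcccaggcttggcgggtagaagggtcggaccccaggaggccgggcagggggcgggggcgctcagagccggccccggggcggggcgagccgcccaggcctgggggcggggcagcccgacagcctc
The Hey2 window held TTCCCA once, at positions -207 to -202 from the start, and TGGGAA once, across the start site. Of the 7 members with a window of 300 bases in that table (Hey2, Notch1, Notch2, Notch3, Jag1, Dll4 and Nrarp), Hey2 alone held these letters. They occur in 25.6% of the 32851 windows of this length, and 3.79% hold them more than once. The E-box CACGTG occurred once, in Nrarp, and in 7.15% of all windows. The windows of Hey2 and Notch3 were rich in G and C (72.0% and 70.0%) and held 29 and 25 CpG, against medians of 52.7% and 7.0 over all windows. Matches are a description of the letters and say nothing of binding.

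Heyl, the HEY family member of vascular smooth muscle, rose while Hey2 was still high. It lay at log2 intensities of 4.19, 4.21 and 4.32 at E10.5, 5.84, 5.85 and 6.16 at E18.5, 5.44, 5.67 and 5.71 at E19.5, and 5.27, 5.35 and 5.66 in young adults. All E10.5 arrays lay below all arrays of those later stages. The log2 difference of E10.5 was -1.19 (SE 0.16, adjusted p = 2.86e-07) from young adults and -1.37 (SE 0.16, adjusted p = 6.73e-08) from E19.5. E19.5 and young adults differed by 0.18 with a 95% interval from -0.16 to 0.51. Of both dimmer probe sets, 1419302_at gave -0.83 (adjusted p = 0.000158) and 1419303_at -0.42 (adjusted p = 0.0471) between E10.5 and young adults.

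Hey1, a HEY factor of endothelium and atrial myocardium, gave no called difference between the ends of the course in the values as deposited. Its log2 intensities were 5.75, 5.80 and 6.10 at E10.5, 4.96, 6.33 and 6.35 at E19.5, and 5.89, 6.06 and 6.22 in young adults. The lone low value at E19.5 was the mixed array, and all 3 groups overlapped. The log2 difference of E10.5 from young adults was -0.18 with a 95% interval from -0.65 to 0.30, which does not overlap with that of Hey2, 3.75 to 4.83. It was called after quantile normalization (-0.59, adjusted p = 0.0318) and after centring (-0.70, adjusted p = 0.00400). In between, Hey1 was lower than in young adults at E12.5 (adjusted p = 0.0351), E15.5 (adjusted p = 0.00932) and E17.5 (adjusted p = 0.0130).

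Hes1, the broadly used HES repressor, had the narrowest range of the members, 0.53 log2 units over all 12 stage means. Its log2 intensities were 5.96, 6.09 and 6.22 at E10.5, 5.85, 5.93 and 6.07 at E19.5, and 5.84, 6.39 and 6.6 in young adults, and these groups overlapped. E10.5 differed from young adults by -0.19 with a 95% interval from -0.52 to 0.15, and E19.5 by -0.33 with an interval from -0.66 to 0.01. The low young adult value was the male array, and without it both passed, with log2 differences of -0.40 (adjusted p = 0.0350) and -0.55 (adjusted p = 0.0127). The scaling moved these values more. At E10.5 Hes1 passed after quantile normalization (-0.63, adjusted p = 0.000286), centring (-0.71, adjusted p = 7.74e-05) and with the hybridization covariate (-0.87, adjusted p = 0.0247), and at E19.5 under the same 3 (-0.49, -0.51 and -0.63). At E15.5 it was called lower in the values as deposited too (-0.47, adjusted p = 0.0222). Hey1, Hes1 and Hey2 each have 1 probe set, so no second reading of them was available here.

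Nrarp, a small protein that is switched on by Notch and limits it, rose between E10.5 and E19.5. It lay at log2 intensities of 4.99, 5.61 and 5.81 at E10.5, 6.28, 6.46 and 6.54 at E19.5, and 6.14, 6.32 and 6.46 in young adults, with no overlap of E10.5 and either later group. The log2 differences of E10.5 were -0.83 (SE 0.24, adjusted p = 0.00431) from young adults and -0.95 (SE 0.24, adjusted p = 0.00217) from E19.5. The dimmer probe set 1417986_at gave -1.16 and -0.94, both past the test. E19.5 and young adults differed by 0.12 with a 95% interval from -0.38 to 0.62.

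**Figure D3:**
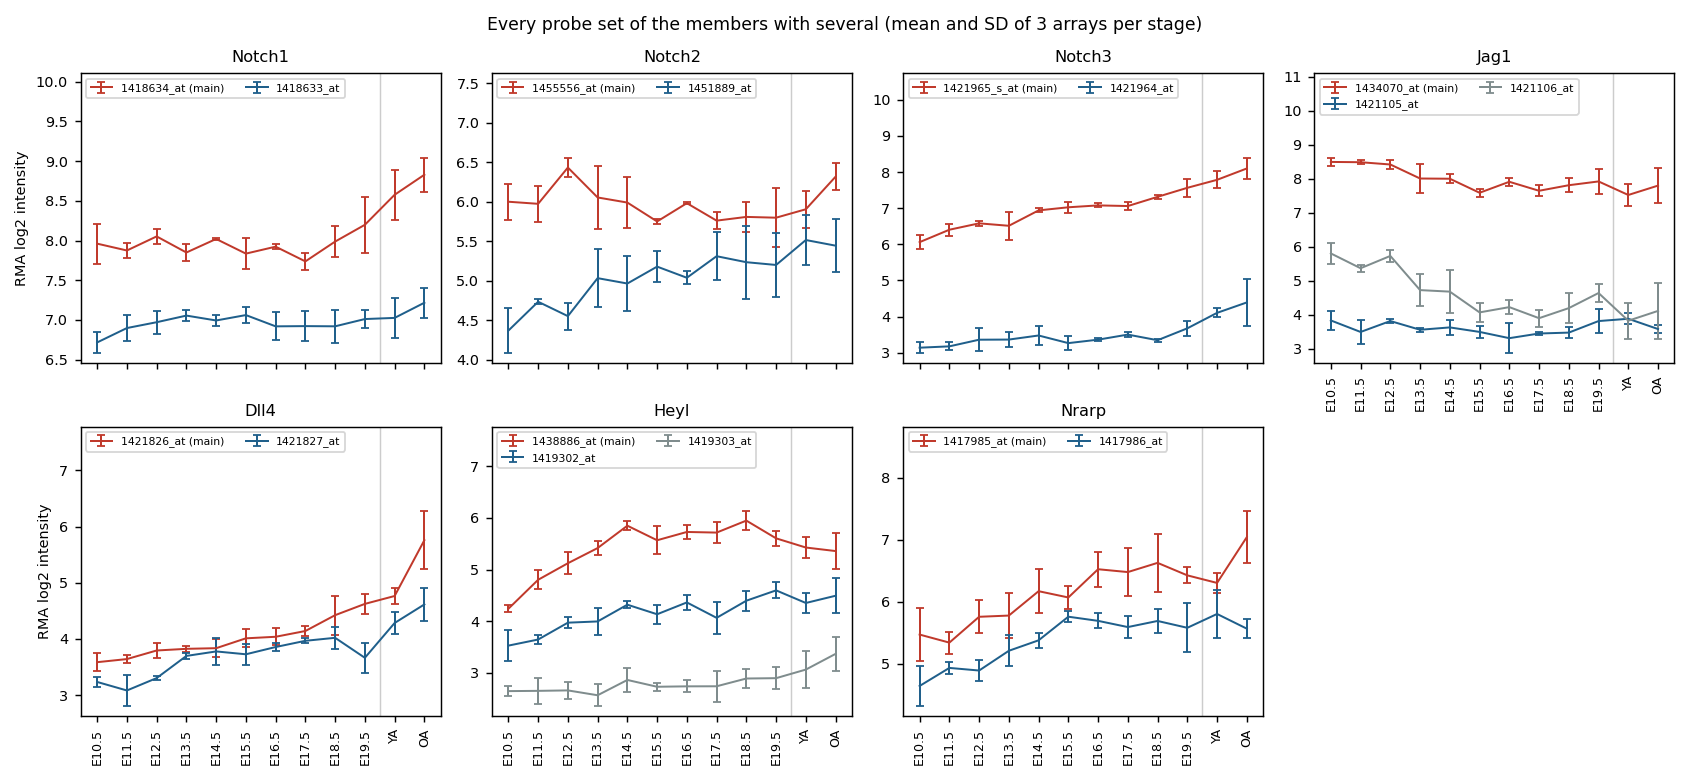
Mean RMA log2 intensity with its SD (3 arrays a stage, vertical axis) over the 12 stages (horizontal axis) for every probe set of the 7 members with more than 1. The probe sets of Notch2 ran in different directions, whereas Jag1 1421106_at fell with the main Jag1 probe set from 5.80 to 3.83.

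In old against young adult hearts, 2 of 10 members were higher (Dll4 and Hey1) against 3.83% of all probe sets, and 0 were lower against 3.13%. Of the probe sets with a mean above 5, 7.08% were higher and 3.44% lower, and Dll4 belongs to that class through its old adult mean of 5.76 alone. Members had a median log2 difference of 0.30, against -0.02 over all probe sets and 0.12 over those with a mean above 5. No member was a DEG.

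Dll4 lay at log2 intensities of 5.17, 5.97 and 6.13 in old adults and 4.64, 4.73 and 4.93 in young adults. The groups did not overlap, with a log2 difference of 0.99 (SE 0.18, adjusted p = 0.000885), a 1.99-fold higher intensity. The lowest of the old arrays was the female one that stood apart in its atrial markers, and without it the log2 difference was 1.28 (adjusted p = 6.15e-06). The summed endothelial markers of that array were also the lowest of the old arrays, 3006 against 3331 (male) and 4775 (mixed). The part of that sum in the Dll4 values was not tested. The other Dll4 probe set, 1421827_at, was higher by 0.33, which did not pass the test (adjusted p = 0.209). With only the 6 arrays of both ages in the fit the difference for the main probe set was not called either (adjusted p = 0.149).

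Hey1 lay at 6.41, 6.78 and 7.21 in old and 5.89, 6.06 and 6.22 in young adults, again with no overlap, and its log2 difference of 0.74 (SE 0.23, adjusted p = 0.0491) was just past the limit. It was lost without the young adult male (0.74, adjusted p = 0.104), young adult mixed (0.66, adjusted p = 0.150), old female (0.75, adjusted p = 0.0796) or old mixed array (0.54, adjusted p = 0.208). Nrarp was higher by a log2 difference of 0.74 as well, with no overlap, but its adjusted p was 0.0618. It passed without the old female array (0.93, adjusted p = 0.0298) and with a filter on low probe sets before the fit (adjusted p = 0.0494), while its other probe set pointed down, with -0.24 and a 95% interval from -0.62 to 0.14. Hey2 stayed low, with a difference of -0.16 and an interval from -0.70 to 0.38, but with the hybridization covariate it was called lower in old adults (-0.80, adjusted p = 0.0250). The mean level of these controls was 11.37 in old and 12.17 in young adults, and the arrays of both ages did not overlap in it (11.16 to 11.56 and 12.03 to 12.43).

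Cell markers moved between both ages too. Of 9 endothelial markers, 2 were higher in old adults and 0 lower, against 3.83% and 3.13% of all probe sets. Their summed linear intensity was 3006 to 4775 in old against 2355 to 2558 in young adults, with Pecam1 higher by a log2 difference of 1.19 (adjusted p = 0.0127). The leukocyte marker Ptprc was higher by 2.00 (adjusted p = 0.000287), the endocardial marker Npr3 by 1.32 and the epicardial marker Wt1 by 1.84, each the 1 called gene of its list, of 5, 4 and 5. The summed endocardial markers of the old mixed array, 340, lay below all young adult arrays (423 to 709). Of the old arrays, 2 of 3 lay within the young adult range of the epicardial sum. The old female array was the highest old one in the endocardial (1108, against 577 and 340) and epicardial sums (545, against 245 and 211). It was also highest in the leukocyte sum (1222, against 827 and 791), where all old arrays lay above the young adult ones (624 to 688). Of 9 mural markers 1 was higher and 3 lower, with Acta2 lower by a log2 difference of -0.67 and Cnn1 by -1.28, and of 5 fibroblast markers 1 was lower and 0 higher, with a median of -0.57. Of 6 cardiomyocyte markers 1 was higher, and 0 of the atrial, ventricular and erythroid markers were called (limma). The part of these markers in the values of Dll4 and Hey1 was not tested.

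The male and female arrays of 9 stages, E13.5 to old adult, were paired to look for a difference by sex label, leaving out E12.5 as the study did. None of the 10 members (0) passed the test (limma), against 0.0488% of all probe sets, and 1, Hey2, had an unadjusted p under 0.05. Its log2 difference, male minus female, was -0.27 (SE 0.10, adjusted p = 0.578), and the male array was higher in 1 of 9 pairs. With the E12.5 pair, which ran the other way, it was -0.18 (SE 0.11, adjusted p = 0.925), with the male array higher in 2 of 10 pairs and an unadjusted p of 0.130, and again 0 members were called. A change of the sex difference between mature and embryonic hearts passed the test for 0 of 10 members, against 0.548% of all probe sets. An unadjusted p under 0.05 (limma) was found for 4 (Notch1, Notch3, Hey2 and Heyl), the lowest adjusted p being 0.206 for Notch3. The share of all probe sets at that unadjusted limit is not given here, so no excess is read from the 4. There were 2 mature pairs.

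The rest of the pathway was read from a list of 48 further genes, of which 45 were on the array. Between E10.5 and young adults 14 were higher at E10.5 and 16 lower, against 27.1% and 35.9% of all probe sets, with a median log2 difference of 0.03. Between E19.5 and young adults 8 were higher and 7 lower, against 15.5% and 13.6%, and between E10.5 and E19.5, 11 were higher and 14 lower, against 21.8% and 23.7%. Notch4, the receptor of endothelium, was the 1 DEG among them at E10.5 against young adult, where 6.53% of all probe sets were DEGs. Its mean log2 intensity was 5.83 ± 0.25 (SD, n = 3) at E10.5, 7.23 in E19.5 hearts and 7.85 ± 0.48 in young adults, with log2 differences from young adults of -2.02 (SE 0.19, adjusted p = 1.23e-10) at E10.5 and -0.62 at E19.5.

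The counts by role are small and are read beside the 48.5% higher and 25.3% lower of probe sets with a mean above 5. Between E10.5 and young adults 3 of 5 genes of receptor glycosylation were lower at E10.5 and 1 was higher. Of 9 genes of receptor cleavage, 4 were higher and 1 lower, with Adam10, the protease of the first cut, higher by a log2 difference of 1.94 (adjusted p = 4.81e-08). The DNA-binding partner Rbpj, named here for its place in the pathway, differed by 0.06 (adjusted p = 0.803). Of 8 genes of receptor turnover, 2 were higher and 4 lower. In old against young adults 3 of the 45 genes were higher, namely Adam10 (0.79), Tle3 (0.71) and Poglut1 (0.52). The fringe enzyme Lfng (-0.49) was the 1 lower gene. All were named after their log2 differences were seen, as was Adam10 above. Of all probe sets, 3.83% were higher in old adults and 3.13% lower, and of those with a mean above 5, 7.08% and 3.44%.

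**Figure D4:**
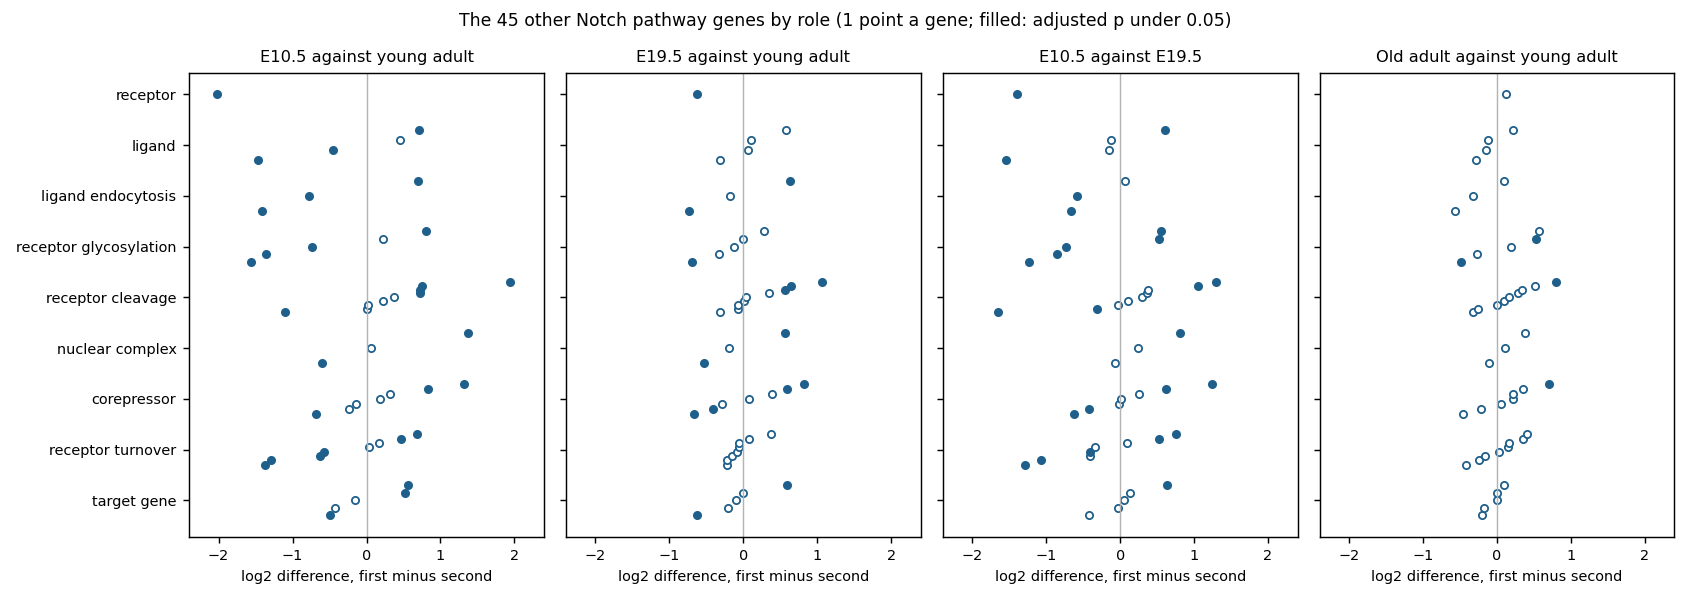
Log2 difference (horizontal axis, first stage minus second) of the 45 other Notch pathway genes in 4 comparisons, in rows by role, with filled points where the adjusted p was under 0.05. Genes of most roles moved both ways at E10.5, and the receptor row holds Notch4 at -2.02.

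Markers of the cells that use the pathway shifted over the same stages. At E10.5 against young adults 27.1% of all probe sets were higher and 35.9% lower, and 48.5% and 25.3% of those with a mean above 5. Of 9 endothelial markers, 7 were lower at E10.5 than in young adults and 0 higher, with a median log2 difference of -1.49, and 5 were lower at E19.5, against 13.6% of all probe sets. The sum of their linear intensities ranged from 831 to 1141 over the E10.5 arrays, from 1213 to 1964 over those of E19.5 and from 2355 to 2558 over the young adult ones. Cdh5, the cadherin of endothelial junctions, lay at a log2 intensity of 6.97 at E10.5 and 8.07 in young adults, close to its 7.99 at E19.5. On the E19.5 mixed array, where all members but Dll4 and Hes1 were lowest of their stage, the endothelial sum was 1213, against 1958 and 1964 on both others. The atrial sum (3403 against 5134 and 7582), the endocardial sum (224 against 254 and 320) and the epicardial sum (284 against 299 and 357) were lowest there too, and the leukocyte sum was highest (302). The part of these sums in the values of that array was not tested.

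Mural markers were mixed. Of 9, 4 were higher and 4 lower at E10.5 than in young adults, Rgs5 and Myh11 being lower by log2 differences of -5.21 and -5.34 and Acta2 higher by 1.36. Of 5 fibroblast markers, 3 were lower and 1 higher at E10.5, and of 4 endocardial markers 3 were higher and 1 lower. Of 6 cardiomyocyte markers 1 was higher and 3 lower, and of 5 ventricular markers 2 were higher and 0 lower. Erythroid markers were higher in 4 of 6 and lower in 1. Leukocyte markers were lower in 5 of 5, of which only 2 exceeded a mean of 5 at some stage. Atrial markers were higher in 3 of 6 and lower in 1, and epicardial markers higher in 2 of 5 and lower in 1. The part of these shifts in the values of Notch1, Notch3, Dll4, Heyl and Nrarp was not tested.

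**Figure D5:**
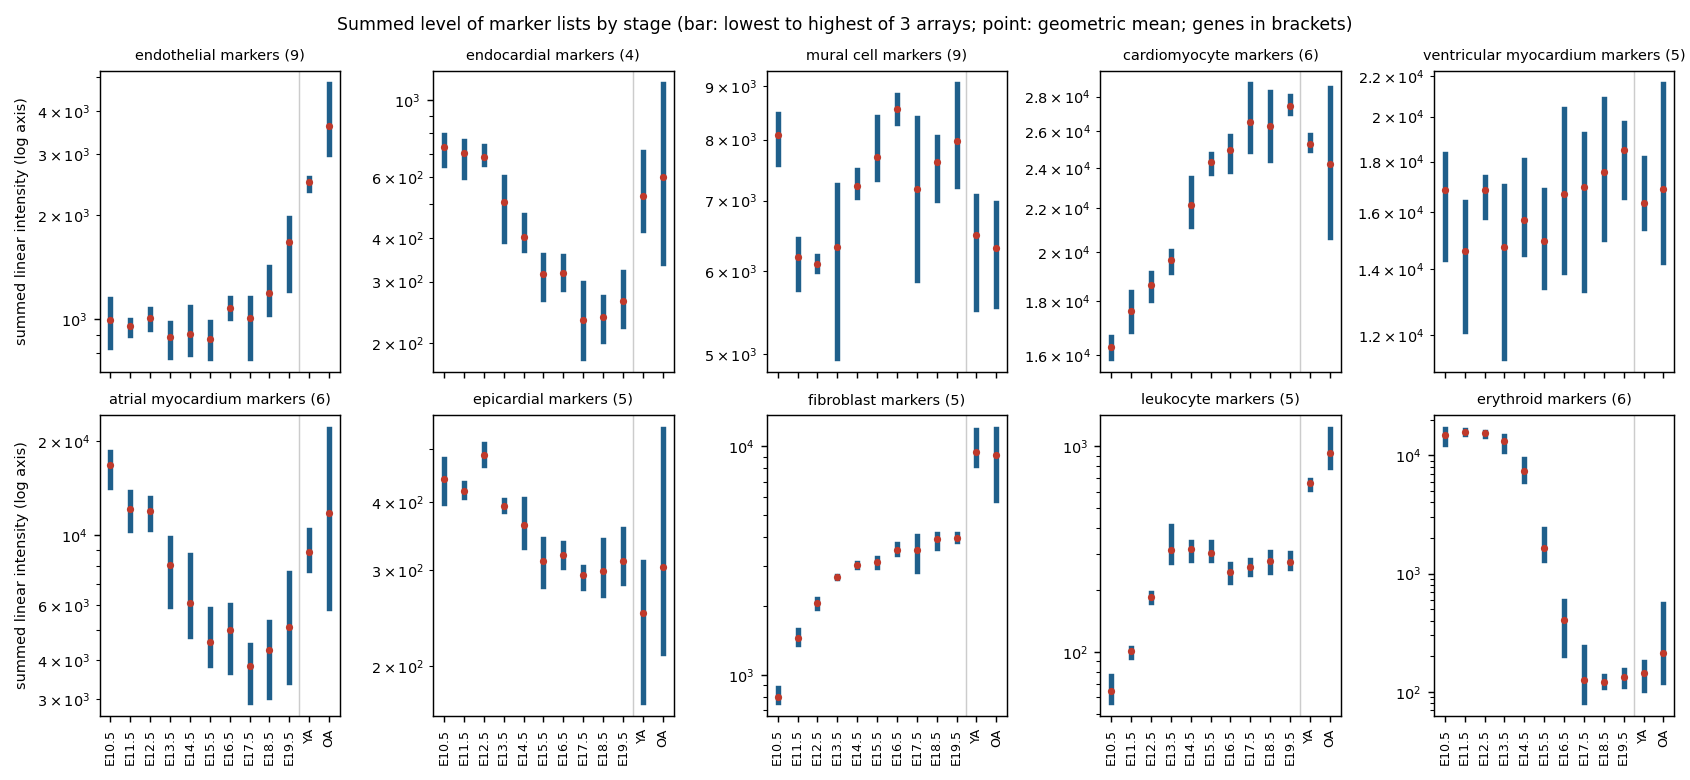
Summed linear intensity of marker genes (vertical log axis) by stage (horizontal axis) for 10 lists, with a bar from the lowest to the highest of 3 arrays and a point at the geometric mean. The endothelial sum rose late, from at most 1141 at E10.5 to at least 2355 in young adults, while the erythroid sum fell.

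The genes whose 12 stage means were most like those of a member, by Pearson r, are given as a description, since a course over 12 stages is shared by many genes. For Notch1 they were Diaph2 (0.99), Skap2 (0.98) and Ecscr (0.98). For Notch3 they were C1qtnf1 (0.99), Cd93 (0.99) and Myct1 (0.99), for Dll4 C2, Syngr1 and Dram1 (all 0.98), for Heyl Vldlr, Thbs2 and 3830406C13Rik (all 0.97), and for Nrarp Pdgfb (0.97), Pitpnc1 and AW987390 (both 0.96). Hey2 was followed by 4632427E13Rik, Ssr3 and Hnrnpa2b1 (all 1.00 when rounded), and Jag1 by Plaa, Sec63 and Cstf2t (all 0.97). The flatter courses gave Vasn (0.95), Sulf1 (0.93) and Dennd5a (0.92) for Notch2, LOC548102 (0.98), Chmp4b (0.97) and Entpd1 (0.96) for Hey1, and Rhog, Zfp703 and Tex264 (all 0.94) for Hes1.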

How the data were processed

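Heart RNA was hybridised to 36 one-colour Affymetrix mouse gene expression arrays. The authors made the deposited log2 intensities with RMA (background subtraction, quantile normalization, probe set summary), on the R/Bioconductor platform per the paper, while the submitters' processing notes also name Affymetrix Expression Console and Partek 6.6. Probe set symbols come from the array's annotation, and its genome build is not given in the sources used here. Values were used as deposited. Arrays have no read depth, and their number limits the precision.

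A linear model of 12 stage means was fitted over all 45101 probe sets with limma 3.58.1 in R 4.3.3 (eBayes, Benjamini-Hochberg within each comparison), with stage as a block for the sex labels. It was tested on simulated data. The named genes were all members, each from its probe set with the highest mean, list genes that were DEGs or defining markers, and the 3 genes most like each member. Outside this rule, Adam10, Tle3, Poglut1 and Lfng were named after their values were seen, and Rbpj for its place in the pathway. The members and lists were chosen with earlier results of these data known. Replicate numbers at E10.5 and E11.5, and sex labels of each of 9 stages with young adults, did not pair the samples: at 0 of the 9 was every correlation of deviations over 0.1 (range -0.092 to 0.23). From the E16.5 female array on, titles carry another prefix, which was tried as a covariate. Only E16.5 holds both kinds of title, so that this covariate is estimated from that stage alone. The hybridization control level, another covariate, did not overlap between young adults and E10.5, E19.5 or old adults. Its effect is estimated from differences within stages. Alternatives also covered normalization, filters, arrays in the fit and leaving out arrays. Micro-RNA arrays were not analysed here.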

Additional observations from a re-analysis of the deposited data

How the results depend on the processing

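Among the members called in a comparison, Hey2 kept its call against young adults at E10.5 and E19.5 under every alternative tried, with log2 differences of 2.48 to 4.52 and 1.94 to 2.97. Notch3, Dll4, Heyl and Nrarp kept theirs at E10.5 against young adult and against E19.5. Centring each array on the median of probe sets with a mean above 5 over the 36 arrays moved arrays by -0.31 to 0.32. The values below are read against that shift. Shares of all probe sets called are not given for these alternatives, so the counts below are not read as results about the members.

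The number of members called at E10.5 against young adult went from 7 to 9 with quantile normalization, 10 with centring, 8 with the mean over probe sets and 5 with the title prefix. At E19.5 against young adult it rose from 1 to 2 with quantile normalization, 3 with centring and 4 with the hybridization control level as a covariate. Within the arrays of 1 title prefix, an alternative chosen after seeing the data, E17.5 against young adult gave 3, against 5 from all arrays, without Dll4 (adjusted p = 0.0559) and Hey1 (adjusted p = 0.0817). DEGs at E10.5 against young adult rose from 1 to 2 with quantile normalization, centring or the hybridization covariate, and to 4 with a limit of 1 on the log2 difference, which gave 2 in place of 0 between E10.5 and E19.5. At E19.5 against young adult the DEG count fell from 1 to 0 with the hybridization covariate and with 6 arrays in the fit. Old against young adult gave 1 in place of 2 with quantile normalization, centring or the title prefix, and 0 with 6 arrays in the fit. Daily steps gave 2 in place of 1 with a filter before the fit or centring. The prefix covariate, estimated from E16.5 alone, left 27 of the 42 calls at E11.5 to E18.5. With the hybridization or prefix covariate Notch1 (-0.81 and -0.64) and Jag1 (0.53 and 0.85) lost the call at E10.5 against young adult. Jag1 between E10.5 and E19.5 was lost with quantile normalization (0.15), centring (0.23) and both covariates (0.33 and 0.46).

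Leaving out each array in turn gave 7 to 8 members called at E10.5 against young adult (DEGs 1 to 1), 1 to 2 at E19.5 (DEGs 1 to 1), 5 to 6 between the embryonic ends (DEGs 0 to 0), 1 to 2 in old adults, 6 to 7 over the embryonic course, 0 to 2 daily steps and 39 to 45 pairs at E11.5 to E18.5.

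Directions turned for differences that were not called in the values as deposited. Of the turned values, Notch2 passed the test at E10.5 against young adult with centring, the hybridization covariate and the mean over probe sets, and between E10.5 and E19.5 with that mean, and Nrarp passed at E19.5 against young adult with the hybridization covariate (adjusted p = 0.0495). In the order quantile normalization, centring, hybridization covariate and mean over probe sets, Notch2 gave -0.33, -0.43, -0.99 and -0.53 at E10.5 against young adult and -0.054, -0.14, -0.40 and -0.31 between E10.5 and E19.5, and Nrarp gave -0.016, -0.062, -0.58 and -0.050 at E19.5 against young adult. In the order quantile normalization, centring and hybridization covariate, Hey1 gave -0.22, -0.34 and -0.50 between E10.5 and E19.5 (-0.13 with the prefix), Hes1 gave -0.15, -0.20 and -0.24 there and -0.093, -0.076 and -0.17 in old against young adult. Heyl turned to -0.0060 at E19.5 with centring and to 0.027 in old adults with the hybridization covariate. Without single arrays Notch2 ranged from -0.016 to 0.23 at E10.5 against young adult, -0.23 to 0.11 at E19.5 and -0.013 to 0.32 between these, and Hey1 from -0.41 to 0.28 at E19.5 and -0.46 to 0.23 between E10.5 and E19.5. In old adults the ranges were -0.42 to 0.068 for Hey2, -0.23 to 0.11 for Heyl and -0.15 to 0.23 for Hes1. The cause was not tested.

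With the replicate block on the numbers at E10.5 and E11.5, whose correlations of deviations were 0.14, -0.21 and 0.12, the step from E10.5 to E11.5 gave 0 called members, as without it, and 126 called probe sets against 205 from the same 6 arrays. With the sex label as the replicate block, old against young adult gave 0 called members, and E19.5 against young adult 1.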
